A study of Mus musculus with 4 samples.

Results

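The sterol and fatty acid synthesis genes are 32 genes of lipid synthesis, chosen by name and with earlier results of these data known. They are 18 sterol enzymes, 6 regulators or carriers and 8 fatty acid enzymes. A gene was represented by the probe set that names it alone and has its highest mean over the 4 arrays, which gave values for 31 of the 32 among 19937 genes in all. The expression of Acat2, the acetoacetyl-CoA thiolase of the cytosol, was not analysed here, though its promoter was.

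Gliomas were raised in C57/Bl6 mice by a retrovirus carrying PDGF-B and EGFP on one transcript, given to embryos at day 14. Every sample, in both groups, carried this PDGF-B/EGFP overexpression, and EGFP-positive cells were sorted from the dissociated tumours. The early-onset, low-grade group had 2 samples, pool 1 and pool 2, each of cells from 2 tumours. The late-onset, high-grade group had 2 samples, tumour 1 and tumour 2, each from 1 tumour, so pooling and tumour stage cannot be told apart. The age at onset, the viral promoter and the kind of cell first infected are not given in the sources used here.

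Cholesterol is built from acetyl-CoA through mevalonate, isoprenoids, squalene and lanosterol, and fatty acids are built from malonyl-CoA and then elongated and desaturated. Both pathways are switched on by SREBP transcription factors, with SREBP2 acting mostly on sterol genes and SREBP1 more on fatty acid genes. When sterols run low, SCAP carries the SREBPs to the Golgi to be cut, and when sterols are plentiful, INSIG proteins hold SCAP back. In the brain cholesterol is made locally, with oligodendrocytes needing much of it for myelin.

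Across the sterol and fatty acid genes, the sterol branch lay higher in late-onset cells and the fatty acid branch did not. Hsd17b7, Cyp51 and Fdps rose by 1.84-fold, 1.59-fold and 1.35-fold, as did Srebf1, which encodes SREBP1, by 1.53-fold. At an adjusted p under 0.05 by limma, 0 of the 31 genes were called lower, against 8.12% of all genes. Log2 fold changes below 0 were seen in 5 of the 31, with Fads2 the lowest at -0.31 (adjusted p 0.137). The median log2 fold change, late-onset minus early-onset, was 0.30 for 17 sterol enzymes, 0.29 for the 6 regulators and 0.03 for the 8 fatty acid enzymes, against -0.01 for all genes. Because the samples are bulk RNA, more cells of a type and more RNA per cell cannot be told apart.

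Promoters of these genes are shown first, since the sterol enzymes share letters there that the choice of genes did not use. A RefSeq window (GRCm38.p6) running from 250 bases before to 50 bases after a transcription start was on hand for 25 of the 32 genes, 15 of them sterol enzymes. Of the 25 genes, Hmgcs1 alone has a window with the exact letters TCACNCCAC, a core of the sterol response element, where N is any base. The windows below belong to Hsd17b7 and Cyp51, which rose most, to Hmgcs1, and to Fasn, whose level hardly differed. They lie at chr1:169969156-169969455 (minus strand), chr5:4104648-4104947 (minus), chr13:119690101-119690400 (plus) and chr11:120824498-120824797 (minus). Each is read along the gene. Capitals mark CCAAT, the box bound by NF-Y, which is known to act with SREBPs, GGGCGG, a GC box bound by Sp1, and the element core TCACNCCAC, each on either strand.
Hsd17b7: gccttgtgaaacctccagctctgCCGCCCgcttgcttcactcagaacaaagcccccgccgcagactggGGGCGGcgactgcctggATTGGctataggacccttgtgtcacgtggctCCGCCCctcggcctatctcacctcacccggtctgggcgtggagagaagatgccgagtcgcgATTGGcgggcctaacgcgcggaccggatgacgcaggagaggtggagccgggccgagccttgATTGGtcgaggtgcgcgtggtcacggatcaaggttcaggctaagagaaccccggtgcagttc
Cyp51: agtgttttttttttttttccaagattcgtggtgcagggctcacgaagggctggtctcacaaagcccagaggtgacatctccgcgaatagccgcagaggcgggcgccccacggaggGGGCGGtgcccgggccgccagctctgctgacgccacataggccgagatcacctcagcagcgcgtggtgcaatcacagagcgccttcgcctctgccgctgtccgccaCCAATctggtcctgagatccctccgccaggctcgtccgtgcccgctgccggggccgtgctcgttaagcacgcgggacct
Hmgcs1: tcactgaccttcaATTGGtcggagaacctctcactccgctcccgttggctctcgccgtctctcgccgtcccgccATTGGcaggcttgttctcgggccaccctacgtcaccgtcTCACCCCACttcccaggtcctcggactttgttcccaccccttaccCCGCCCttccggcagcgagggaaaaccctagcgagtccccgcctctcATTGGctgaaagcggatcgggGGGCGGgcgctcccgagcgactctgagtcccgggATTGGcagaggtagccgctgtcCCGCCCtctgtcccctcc
Fasn: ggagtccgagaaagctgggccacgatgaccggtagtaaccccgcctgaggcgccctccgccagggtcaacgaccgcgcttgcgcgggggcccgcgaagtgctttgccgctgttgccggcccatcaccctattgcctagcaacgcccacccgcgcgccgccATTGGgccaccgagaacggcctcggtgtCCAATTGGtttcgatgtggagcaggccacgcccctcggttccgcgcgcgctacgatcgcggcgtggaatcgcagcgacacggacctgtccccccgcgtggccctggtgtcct

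CCAAT was found in a window of 14 of the 15 sterol enzymes (93.3%), of 4 of 5 regulators and of 2 of 5 fatty acid enzymes. The share was 37.4% of all 32851 windows and 41.7% of the 15613 measured genes with a window. Hsd17b7 had 3 copies, beginning 165, 73 and 12 bases before the start, and Cyp51 had 1, at 29 bases. The GC box was found for 14 of the 15 sterol enzymes and all 5 regulators, against 52.9% of measured genes, and for 2 of 5 fatty acid enzymes. The core TCACNCCAC, and within it the stricter TCACCCCAC, was found for Hmgcs1 alone, beginning 137 bases before the start, against 1.40% and 0.634% of measured genes. The E-box-like form TCANNTGA, another SREBP site, was found for 1 of the 25 genes, Insig2, against 8.57%. A gene with several windows counts once if any of them holds the letters, and a match is a description of the sequence, not a site of binding. Only exact matches were counted, and variants of the sterol response element in the other windows were not searched for.

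**Figure D1:**
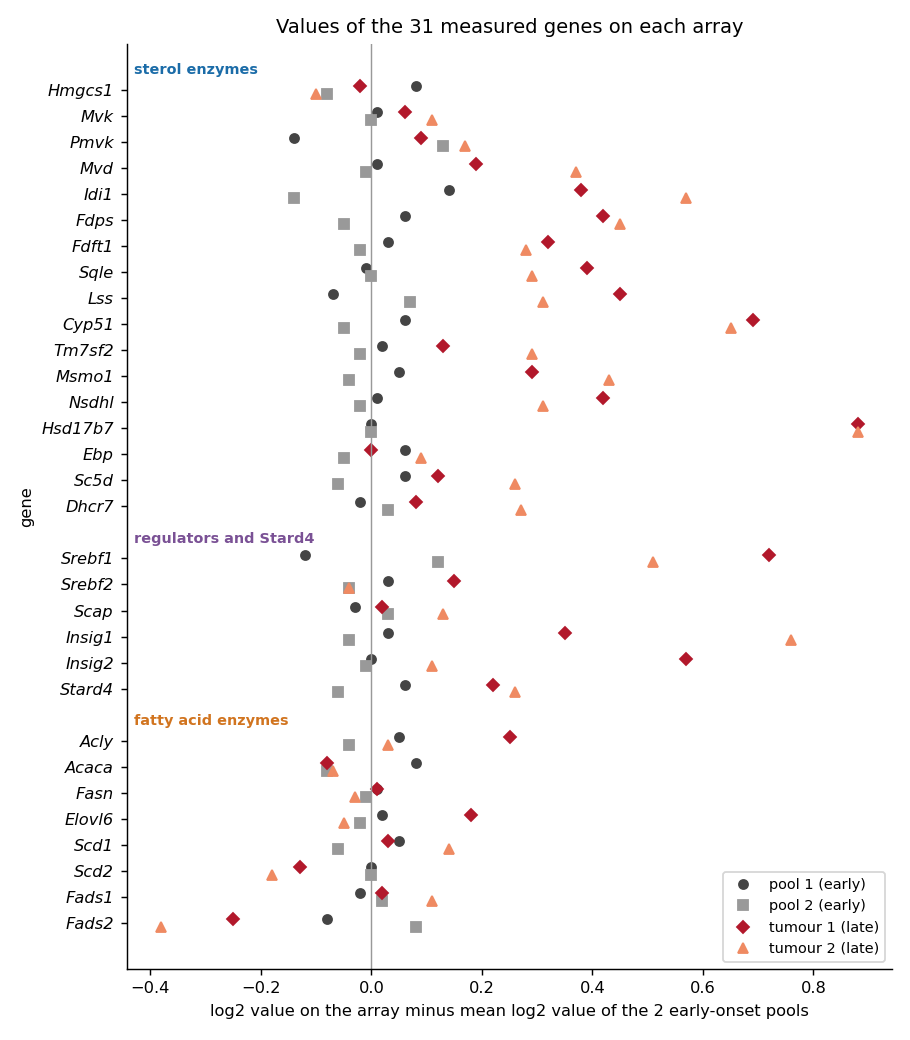
Log2 value of each gene on each array minus the mean of the 2 early-onset pools, with genes in pathway order. Both tumours lie to the right of both pools for the 10 sterol enzymes from Idi1 to Hsd17b7, whereas the fatty acid enzymes scatter around 0.

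The sterol enzymes were read in the order of the pathway, in stages also chosen with earlier results of these data known. The first steps, which make mevalonate and carry it to isopentenyl diphosphate, differed little: the median log2 fold change of Hmgcs1, Mvk, Pmvk and Mvd was 0.11, and 0 of the 4 were called at an adjusted p under 0.05. Hmgcs1, which makes HMG-CoA, stood at log2 values of 11.89 and 11.73 in the pools and 11.79 and 11.71 in the tumours. These overlap, and its log2 fold change of -0.06 had a 95% interval from -0.34 to 0.22. The kinases Mvk and Pmvk were at 0.08 and 0.13. The decarboxylase Mvd had the widest gap of the 4, at 0.28 (SE 0.11, adjusted p 0.160).

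The next 5 enzymes turn isopentenyl units into squalene and then lanosterol, and in all 5 both tumours lay above both pools. Fdps, which joins isoprenoid units to farnesyl diphosphate, stood at 9.86 and 9.75 in the pools and 10.22 and 10.25 in the tumours. Its log2 fold change was 0.43 (SE 0.10, adjusted p 0.0487 by limma), and it was the 1 gene of these 5 that was called. That call lies at the edge of the threshold: it was lost without pool 1 (adjusted p 0.152), pool 2 (0.258), tumour 1 (0.0928) or tumour 2 (0.121). Array weights (0.0506), a replicate block (0.0964), cyclic loess (0.0874) and quantile normalization (0.0736) each ended it too.

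Idi1, the isomerase ahead of Fdps, had values of 10.62 and 10.34 in the pools and 10.86 and 11.05 in the tumours. The gap of 0.48 (SE 0.14) was not called (adjusted p 0.0855), the pools being 0.28 apart. A second Idi1 probe set gave 0.39 (adjusted p 0.195 with every single-gene probe set fitted together). Squalene synthase, Fdft1, was at 0.30 (adjusted p 0.106). Its second probe set rose by 0.57 (adjusted p 0.0244 in that fit), with 10.20 and 10.09 in the pools and 10.69 and 10.73 in the tumours, so its probe sets differ on the call but not in direction. The squalene epoxidase Sqle and the lanosterol synthase Lss stood at 0.34 (adjusted p 0.0821) and 0.38 (0.0852).

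Removal of the methyl groups of lanosterol held the 2 largest differences, in Hsd17b7 and Cyp51, although the median of its 5 genes (0.37) was close to that of the preceding 5 (0.38). Hsd17b7, which encodes the keto reductase of the C4 demethylation complex, stood at 9.10 in both pools and 9.98 in both tumours. Its log2 fold change of 0.88 (SE 0.09, 95% interval 0.64 to 1.12, adjusted p 0.00674) was the largest of all 31 genes. Cyp51, the cytochrome P450 that takes off the C14 methyl group, rose by 0.67 (SE 0.10, adjusted p 0.0155), from 9.93 and 9.82 to 10.56 and 10.52. The groups were apart for both genes by far more than the arrays within a group. Without pool 1 the adjusted p was 0.0504 for Hsd17b7 and 0.0716 for Cyp51, and without pool 2 it was 0.0530 and 0.111. Both calls held in the other 11 settings tried.

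The other 3 genes of these steps had smaller differences and were not called. Of the partners of Hsd17b7 in C4 demethylation, the oxidase Msmo1 was at 0.35 (adjusted p 0.0930) and the dehydrogenase Nsdhl at 0.37 (0.0716). Tm7sf2, which reduces the double bond left after C14 demethylation, was at 0.21 (0.267). In each of these 3 genes both tumours lay above both pools. Msmo1 passed with an intensity-dependent variance prior (limma trend, adjusted p 0.0489) and Nsdhl after each array's median was subtracted (0.0459).

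The last 3 enzymes, which place and remove the final double bonds, differed little. The isomerase Ebp stood at 8.91 and 8.80 in the pools and 8.85 and 8.94 in the tumours, which overlap. Sc5d and Dhcr7 were at 0.19 (95% interval -0.09 to 0.47) and 0.17 (-0.11 to 0.46). Their groups did not overlap, but 0 of the 3 genes were called.

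Over the branch, 3 of 17 sterol enzymes (17.6%) were called higher and 0 lower, against 6.59% of all genes called higher and 8.12% called lower. At an adjusted p under 0.10, 8 of 17 (47.1%) were higher and 0 lower, against 10.9% and 11.9% of all genes. The additional 5 were Idi1, Sqle, Lss, Msmo1 and Nsdhl. In 14 of 17 (82.4%) both tumours lay above both pools, and in 0 did both lie below, against 28.5% and 30.4% of all genes. Of the 17 log2 fold changes 16 were above 0, and the exception was Hmgcs1. Without pool 1 or without pool 2 the count called fell to 0, while the median was 0.31 and 0.27. A lone pool in those fits is assumed to vary like the tumours.

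**Figure D2:**
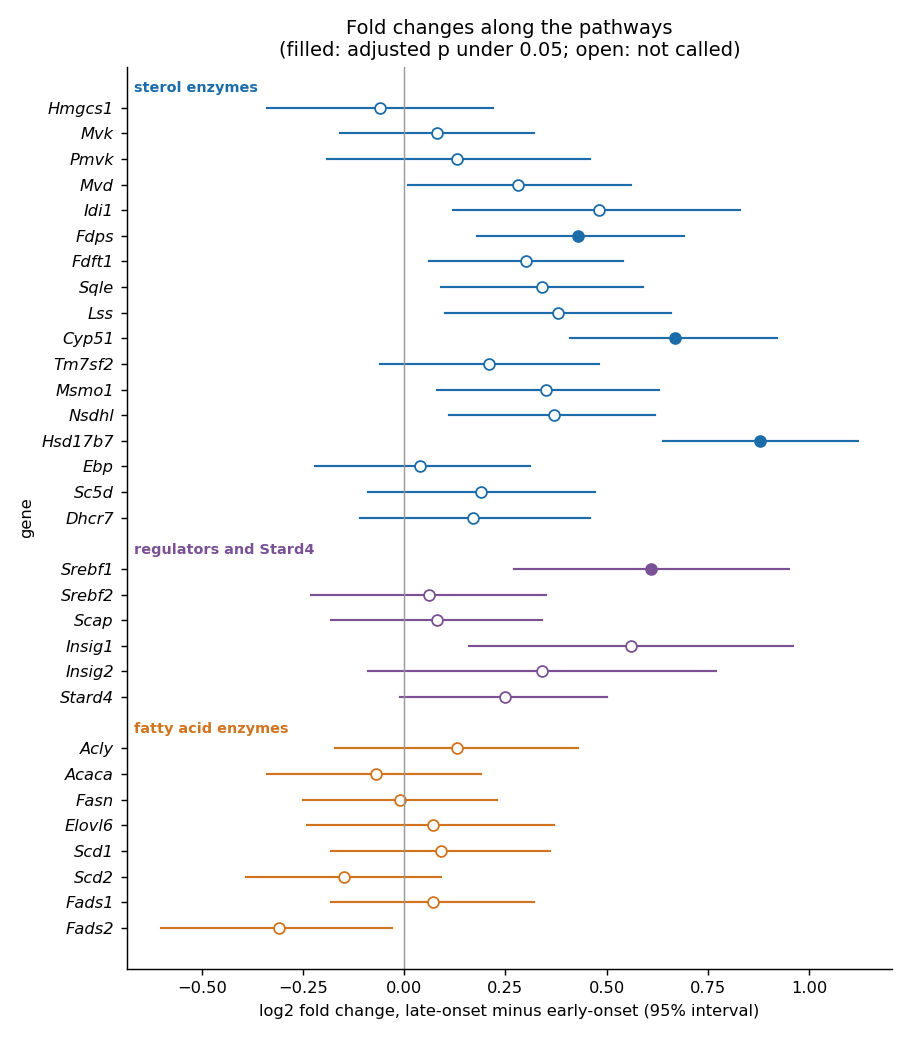
Log2 fold change, late-onset minus early-onset, with its 95% interval from limma for each of the 31 genes in pathway order. The filled points are Fdps, Cyp51, Hsd17b7 and Srebf1, and the intervals of the fatty acid enzymes cross 0 except that of Fads2.

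The regulators were led by Srebf1 and Insig1. Srebf1 stood at 8.86 and 9.10 in the pools and 9.70 and 9.49 in the tumours, a log2 fold change of 0.61 (SE 0.14, adjusted p 0.0421). Srebf2, which encodes SREBP2, stood at 11.00 and 10.93 in the pools and at 11.12 and 10.93 in the tumours. Its groups overlap, and its log2 fold change of 0.06 had an interval from -0.23 to 0.35. The interval of Srebf1 ran from 0.27 to 0.95, and the difference between the genes' fold changes was not tested. The array does not separate the Srebf1 isoforms here, since 1 probe set represents the gene. The Srebf1 call was lost without pool 1 (adjusted p 0.195), pool 2 (0.104), tumour 1 (0.103) or tumour 2 (0.0548). A replicate block (0.0964), cyclic loess (0.0612) and quantile normalization (0.0615) each ended it as well.

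Insig1, itself a target of the SREBPs, had 10.88 and 10.81 in the pools against 11.20 in tumour 1 and 11.61 in tumour 2. Its log2 fold change of 0.56 (SE 0.16) was not called (adjusted p 0.0776), with the tumours 0.41 apart. Without tumour 1 it was called (0.76, adjusted p 0.0255), and without tumour 2 it stood at 0.36 (0.149). The paralogue Insig2 ran the other way between the tumours, at 9.68 in tumour 1 and 9.22 in tumour 2, against 9.11 and 9.10 in the pools. Its log2 fold change was 0.34 (adjusted p 0.251), or 0.11 without tumour 1 and 0.57 without tumour 2.

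Insig2 and Hsd17b7 lie on chromosome 1, where tumour 1 was above tumour 2 by a median of 0.40 over 578 genes. That median lay between -0.06 and -0.01 on each of the other autosomes and on X. Hsd17b7 did not differ between the tumours at 2 decimals, and it was at 0.88 without tumour 1. The chromosome medians set tumour 1 against tumour 2 only, and neither against the pools. The part of chromosome 1 in the values of Insig2 and Hsd17b7 was not tested. Scap, the escort of the SREBPs, was at 0.08 (interval -0.18 to 0.34), and the sterol carrier Stard4 at 0.25 (-0.01 to 0.50). In all, 1 of the 6 regulators (16.7%) was called higher and 0 lower, against 6.59% and 8.12% of all genes. In 4 of 6 both tumours lay above both pools and in 0 below, against 28.5% and 30.4% of all genes.

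The fatty acid enzymes gave no call in either direction, by limma in any of the 14 settings including the main one, and 1 of the 8, Fads2, had an unadjusted p under 0.05. For 8 genes, 0 calls in the main setting is near the shares of all genes called, 6.59% higher and 8.12% lower. Fasn, the multienzyme that builds palmitate, stood at 11.15 and 11.13 in the pools and at 11.15 and 11.11 in the tumours. Its log2 fold change of -0.01 had a 95% interval from -0.25 to 0.23, so a rise of the size seen for Hsd17b7 or Cyp51 lies outside that interval. Ahead of it, the citrate lyase Acly was at 0.13 (-0.17 to 0.43) and the carboxylase Acaca at -0.07 (-0.34 to 0.19). The second Acaca probe set was at 0.03 (adjusted p 0.905). The elongase Elovl6 was at 0.07 (-0.24 to 0.37).

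Of the 4 desaturases, the delta-6 enzyme Fads2 had the widest gap, with 12.26 and 12.42 in the pools and 12.09 and 11.96 in the tumours. The difference of -0.31 (SE 0.11) was not called (adjusted p 0.137). The stearoyl-CoA desaturase Scd2, the main form of the brain, was at 13.23 in both pools and 13.10 and 13.05 in the tumours, a difference of -0.15 (adjusted p 0.364). Its paralogue Scd1 was at 0.09, with groups that overlap, and the delta-5 enzyme Fads1 was at 0.07. How near-identical stretches of Scd1 and Scd2 divide the signal was not tested.

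The sterol and fatty acid branches were set side by side on each array as the median over genes of the log2 value minus that gene's mean over the 4 arrays. For the sterol enzymes this was -0.13 in pool 1, -0.16 in pool 2, 0.10 in tumour 1 and 0.17 in tumour 2. For the fatty acid enzymes it was 0.01, -0.03, -0.01 and -0.04. The sterol values separated the groups, and the fatty acid values did not. The medians of the log2 fold changes differed by 0.27 between the branches. No p is given for this difference, since 2 samples against 2 allow no permutation p under 0.33 and the genes are not replicates. The difference lay between 0.26 and 0.33 in the other settings. The sign of the fatty acid median itself turned to -0.09 after quantile normalization and after cyclic loess and to -0.04 without tumour 1, while the sterol median stayed above 0 in each setting.

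**Figure D3:**
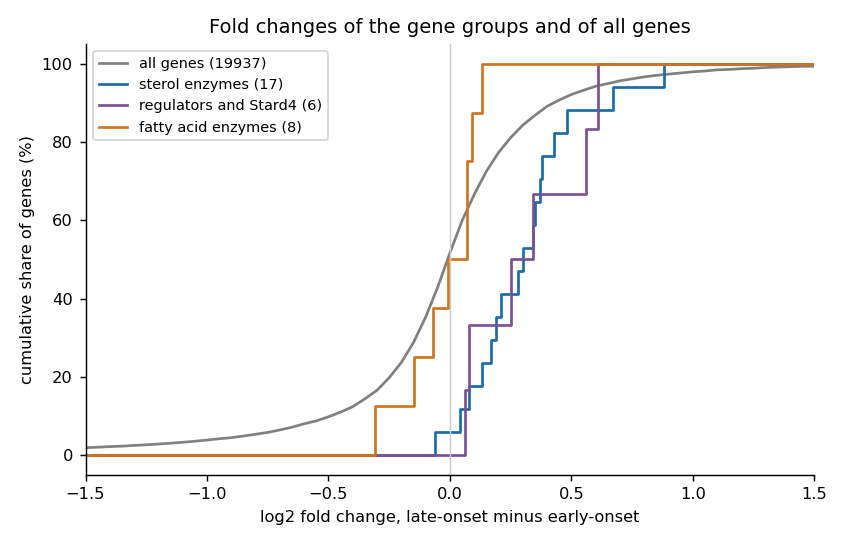
Cumulative share of genes, in percent, against log2 fold change, late-onset minus early-onset, for the 17 sterol enzymes, the 6 regulators, the 8 fatty acid enzymes and all 19937 genes. The curves of the sterol enzymes and regulators lie to the right of that of all genes over most of their range, and the fatty acid enzymes lie within a narrow band from -0.31 to 0.13.

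Markers of other cells and of division also differed between these samples. Of 15 measured microglia and macrophage markers, 14 were called lower in late-onset cells, and their summed linear level ran from 29079 to 32744 in the pools and from 1870 to 3009 in the tumours. Csf1r, the receptor on which macrophages depend, stood at 11.37 and 11.25 in the pools and 7.0 and 7.41 in the tumours. Of 11 proliferation genes, 10 were called higher and 0 lower, with summed levels of 12840 to 14010 in the pools and 22625 to 23900 in the tumours, and Mki67 rose by 1.03. Of 11 myelin markers, 3 were called lower and 1 higher, with summed levels of 11176 to 14522 and 11349 to 13204, which overlap. Mbp, a myelin protein gene, fell by 1.45, while the tight junction gene Cldn11 rose by 2.07.

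Markers of the labelled glioma cells were present on all 4 arrays. Olig2 was between 11.89 and 12.12 and Pdgfra between 13.20 and 13.71. Of 11 oligodendrocyte progenitor markers, 3 were called lower and 0 higher, with summed levels of 64098 to 67379 in the pools and 47886 to 49760 in the tumours. Of 10 astrocyte markers 6 were called lower, of 10 neuron markers 5 lower and 1 higher, and of 12 endothelial and mural markers 1 lower. The part of any of these in the sterol and fatty acid values was not tested. The correlation of all log2 values was r = 0.992 between the pools, 0.988 between the tumours and 0.972 to 0.974 across groups.

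Other genes of lipid metabolism were taken from 5 further lists, with 52 of 64 genes measured. Each count below is set against 6.59% of all genes called higher and 8.12% called lower. In uptake and transport of sterols, 2 of 8 genes were called higher and 3 lower. Mylip, the ubiquitin ligase that sends lipoprotein receptors for breakdown, fell by 2.24 (SE 0.14, adjusted p 0.00231), from 9.27 and 9.35 in the pools to 6.89 and 7.24 in the tumours. It was the largest difference among the lipid genes, 4.73-fold lower in the tumours, and was called in all 13 other settings. Tmem97, a sterol-regulated membrane protein, rose by 0.91 (adjusted p 0.0144), from 9.17 and 9.05 to 9.87 and 10.16. Npc1 and Npc2, which together move cholesterol out of lysosomes, fell by 0.55 each (adjusted p 0.0244 and 0.0372). Scarb1, a receptor for high-density lipoprotein, rose by 0.47 (0.0465) and was named after its value was seen, as was Npc2.

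Among 6 genes that process SREBPs or act on their retention, 1 was called. Mbtps1, the protease that makes the first cut in SREBPs, stood at 10.63 and 10.69 in the pools and 11.16 and 11.13 in the tumours, a rise of 0.49 (adjusted p 0.0306). Of 6 further genes of the sterol branch and its side paths, 0 were called, 3 lay above 0 and 3 below, and the median was 0.04, beside 0.30 for the 17 sterol enzymes. The difference between these lists was not tested. The thiolase gene Acat1 came closest to a call at 0.40 (adjusted p 0.0747).

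Of 22 further fatty acid and glycerolipid genes, 1 was called higher (4.55%) and 2 lower, near the shares of all genes (6.59% and 8.12%), and the median was -0.05. Acsl4, which activates arachidonic acid, rose by 0.67 (adjusted p 0.0354), and Gpam, the first enzyme of glycerolipid synthesis, fell by 0.43 (0.0455). Mid1ip1, which encodes an activator of acetyl-CoA carboxylase, fell by 0.68 (0.0180). As the mean of its probe sets Mid1ip1 was at -0.34 and was not called (0.0776). The largest difference of the 22 was that of the elongase gene Elovl7, named after its value was seen. It stood at 1.47 but was not called (0.0894), with 7.18 and 8.54 in the pools and 9.48 and 9.17 in the tumours. Of the 22 log2 fold changes, 8 lay above 0 and 14 below. Of 10 fatty acid oxidation genes, 1 was called higher and 1 lower (10.0% each), also near the shares of all genes, and the median was -0.14. The dehydrogenase Acadl rose by 0.90 (0.00941), and the brain carnitine palmitoyltransferase Cpt1c fell by 0.57 (0.0211). Acadl lies on chromosome 1 and was at 10.85 in both tumours. The part of chromosome 1 in its values was not tested either.

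Apart from Mylip, all 10 calls of these lists were lost without pool 2 (adjusted p 0.0616 to 0.206), and 9 of them, Acadl being the exception, without pool 1 (0.0683 to 0.225). Without tumour 1 the calls of Npc2, Gpam and Mbtps1 were lost (0.0726 to 0.0993), and without tumour 2 those of Npc1, Scarb1, Acsl4, Gpam, Cpt1c and Mbtps1 (0.0584 to 0.122). The replicate block took 7 of the 10 (0.0563 to 0.0913). Quantile normalization and cyclic loess each ended the calls of Mbtps1 and Scarb1 (0.0652 to 0.0764), and subtracting array medians ended those of Npc2 (0.0554) and Gpam (0.0668).

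**Figure D4:**
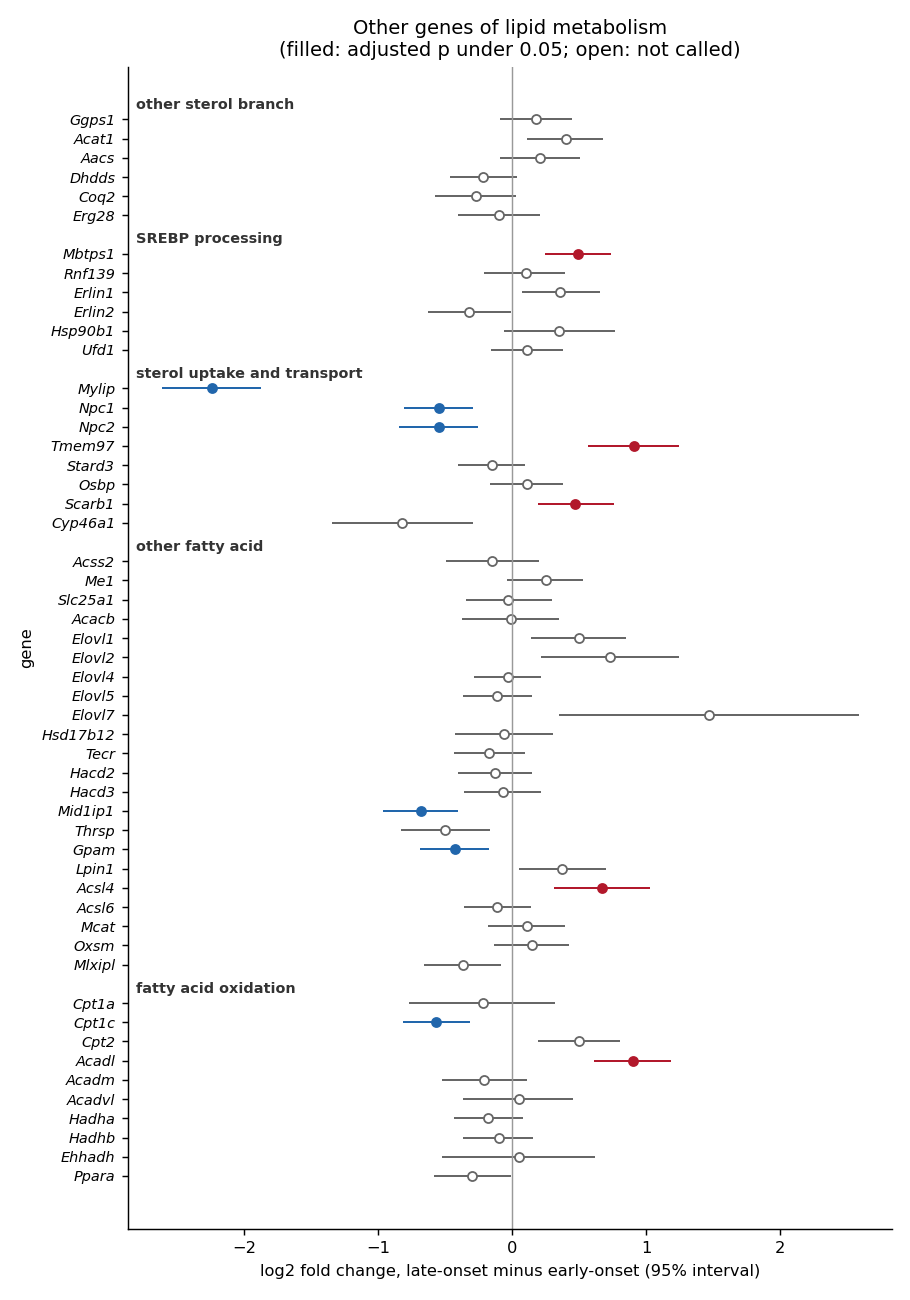
Log2 fold change, late-onset minus early-onset, with its 95% interval from limma for 52 other genes of lipid metabolism in 5 lists. Filled points passed an adjusted p of 0.05, with Mylip at -2.24 farthest from 0.

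**Figure D5:**
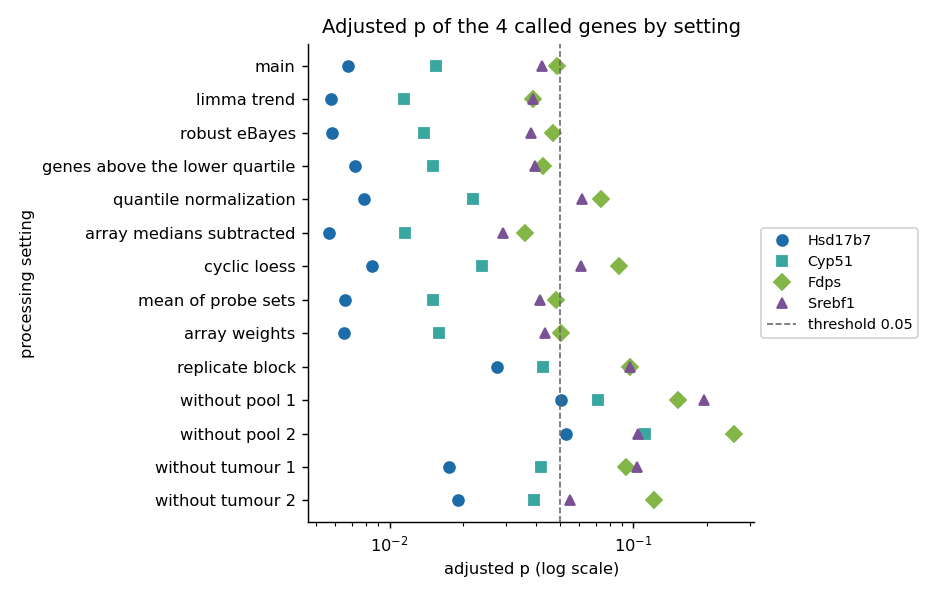
Adjusted p, on a log axis, of Hsd17b7, Cyp51, Fdps and Srebf1 in the main setting and in 13 others, with the threshold of 0.05 dashed. Hsd17b7 and Cyp51 pass except where a pool is left out, and Fdps and Srebf1 lie on both sides of the threshold.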

How the data were processed

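RNA of the 4 samples was hybridised to Affymetrix arrays, and the deposited values are log2 probe set intensities from RMA (affy 3.4.2), per the submitters' processing notes. The array medians of the deposited values ran from 6.63 to 6.71, so scaling the arrays again can move small differences. The RMA options and the array annotation build are not given in the sources used here. Of 34760 probe sets, 21640 carry 1 gene symbol in the platform annotation, 1321 several and 11799 none. Only the first were used, with the highest-mean probe set for each of 19937 genes.

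Late-onset was compared with early-onset using limma 3.58.1 (R 4.3.3) over all genes, with Benjamini-Hochberg adjustment and a threshold of 0.05. Fits rest on 2 residual degrees of freedom and 3.27 prior ones, by which limma draws each gene's variance towards a value shared by all genes. The SE of 0.09 for Hsd17b7, whose SD was 0.0 in both groups, thus comes largely from that shared value. The number of arrays limits the precision. P-values measure only the spread between these samples, in part pooled over genes. The fit was checked for this comparison on simulated data of 19937 genes, 200 of them changed. Of genes changed by 1 on the log2 scale 24.8% were recovered, and of those changed by 2, 96.6%. False calls made up 1.92% and 5.06% of the genes called. In the data 2931 genes were called, and the largest member change was 0.88. The simulated shares therefore do not give the recovery of changes in the members.

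All members are named, with up to 3 called genes by size of change from each related list (the largest moderated statistic where none was called) and, for markers, chosen examples. The members, lists and pathway stages were chosen with earlier results of these data known. Alternatives covered scaling, the variance model, a filter on dim genes, probe set choice, array weights, a replicate block, a threshold of 0.10 and leaving out each sample. Promoter windows are from RefSeq.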

Additional observations from a re-analysis of the deposited data

How the results depend on the processing

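With 2 samples a group, the medians and directions held better than the calls. The members had 406 values in other settings or from a second probe set. Of these, 365 kept their side of the threshold without a change of sign, 19 lost the call, 5 gained it and 17 changed sign. A value that rounds to 0.0 was counted as no change of sign. Each change of sign was in a gene that was not called, and most of the 365 were values of such genes. All 19 losses fell on the 4 called genes. Over 13 settings each, Fdps lost its call in 8, Srebf1 in 7, and Cyp51 and Hsd17b7 in 2. The cause of these changes was not tested.

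The sterol median of 0.30 became 0.23 after quantile normalization, 0.36 with array medians subtracted, 0.21 after cyclic loess and 0.34 with the mean of probe sets, and it ran from 0.27 to 0.31 when 1 sample was left out. The regulators' median of 0.29 became 0.25, 0.35 and 0.23 in the first 3 of these, and 0.20 to 0.32 with 1 sample left out. The fatty acid median of 0.03 became -0.09, 0.09 and -0.09, and -0.04 to 0.03 with 1 sample left out. The difference between the sterol and fatty acid medians was 0.32 after quantile normalization and 0.26 to 0.33 with 1 sample left out.

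All genes called numbered 2931, 4539 at an adjusted p of 0.10 and 850 to 2577 with 1 sample left out, the lowest being without pool 2 and 943 without pool 1. The sterol enzymes called numbered 3, 8 at 0.10, 0 to 2 with 1 sample left out and 2 to 4 otherwise. The count of fatty acid enzymes called lower was 0 in each setting. The deviations of same-numbered samples from their group means had a correlation of -0.04 over all genes. With 2 samples a group this value is the same for both numbers by construction. It cannot show whether the numbers pair the samples. A replicate block left 1833 genes called, 2 of them sterol enzymes.

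Signs changed after quantile normalization for Srebf2 (-0.07), Elovl6 (-0.05) and Fads1 (-0.05), and after cyclic loess for Ebp (-0.01), Srebf2 (-0.06), Scap (-0.02), Scd1 (-0.02), Elovl6 (-0.06) and Fads1 (-0.06). Fasn also changed sign with array medians subtracted (0.05). With 1 sample left out, values ran from -0.14 to 0.02 for Hmgcs1 and -0.15 to 0.01 for Acaca (above 0 without pool 1), from -0.02 to 0.10 for Ebp (below 0 without pool 2), from -0.03 to 0.02 for Fasn (above 0 without tumour 2), and from -0.04 to 0.16 for Srebf2 and -0.05 to 0.18 for Elovl6 (below 0 without tumour 1). The second Acaca probe set (0.03) and that of Fdft1 (0.57) come from a fit of all single-gene probe sets chosen after seeing the data. Fdft1 as the mean of its probe sets was called (0.43, adjusted p 0.0432).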
